A study of Mus musculus with 20 samples.

Results

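The genes described here encode the nuclear subunits of oxidative phosphorylation, the mitochondrial process in which electrons from NADH and succinate are passed to oxygen and the proton gradient so formed drives the synthesis of ATP. They were chosen by gene symbol alone: the Nduf (complex I), Sdh (complex II), Uqcr and Cyc1 (complex III), Cycs (cytochrome c), Cox5 to Cox8 (complex IV) and Atp5 (complex V) names, without Cox7a1 and Cox8b; Cox4i1, Cox4i2 and Ndufab1 do not have the form of name the rule takes. The rule took 82 of the 24062 genes in the count tables: 7 core and 30 accessory genes of complex I, 4 of complex II, 9 of complex III, 1 for cytochrome c, 14 of complex IV and 17 of complex V. Of these 82 genes, 79 passed the filter on low counts in the pituitary and in the comparisons of tissues, and 80 passed in fat. Cox7b2 and Cox8c, known as testis forms, and Cox6a2, the heart and skeletal muscle form of subunit 6a, were at or near 0 in the pituitary.

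RNA of male C57BL/6N mice on a chow diet was measured in 20 libraries. Of these, 10 were of pituitary and 10 of iWAT (inguinal white adipose tissue, the fat under the skin of the groin). In each tissue 5 libraries were labelled wild type (WT) and 5 were labelled as a germline knockout (KO) of Klf14, a Krüppel-like transcription factor gene with no intron. The WT mice were 18, 19, 19, 21 and 21 weeks old, and the KO mice were 19 weeks old in 1 case and 21 weeks old in the other 4. Libraries are named by the number in the sample title, which occurs in both tissues. Whether each library of a group is a different animal is not stated in the labels, and p-values cover only the variation from library to library, which may be technical.

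Oxidative phosphorylation depends on proteins from both genomes of the cell: a small set of catalytic subunits is made inside the mitochondrion, and all other subunits are encoded in the nucleus and imported. Complexes I, III and IV pump protons, complex II feeds electrons in from the citric acid cycle without pumping, and complex V, the ATP synthase, lets protons return through a rotating ring of c subunits. White adipocytes store fat as a single droplet and hold few mitochondria beside brown adipocytes, whereas the endocrine cells of the pituitary make and secrete peptide hormones. The nuclear subunit genes are known for binding sites of NRF1 and of ETS-family factors such as NRF2 close to their start sites. None of the 26 mitochondrial gene names searched for occurs in the tables, so the subunits encoded in the mitochondrion were not analysed here.

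The start-site regions of 5 members are shown, since 3 of them (Atp5g1, Atp5g2 and Atp5g3) encode the same mature c subunit yet differed in their tissue pattern, and the other 2 (Cox6a1 and Sdha) held more than 1 NRF1 match, as did Ndufb4. Each run ends at the base before the RefSeq start of the gene (GRCm38.p6), except that of Atp5g1, which ends before the longer gene model of the count tables; capitals mark matches, on either strand, to the NRF1 motif (GCGCA and GCGC with any 1 base between them) or to the ETS motif CCGGAAG.
Atp5g1, chr11:96075695-96075881, minus strand: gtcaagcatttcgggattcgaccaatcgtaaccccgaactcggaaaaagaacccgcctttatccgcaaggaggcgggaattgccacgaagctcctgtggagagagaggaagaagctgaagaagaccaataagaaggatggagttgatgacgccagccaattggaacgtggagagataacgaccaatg
Atp5g2, chr15:102671048-102671297, minus strand: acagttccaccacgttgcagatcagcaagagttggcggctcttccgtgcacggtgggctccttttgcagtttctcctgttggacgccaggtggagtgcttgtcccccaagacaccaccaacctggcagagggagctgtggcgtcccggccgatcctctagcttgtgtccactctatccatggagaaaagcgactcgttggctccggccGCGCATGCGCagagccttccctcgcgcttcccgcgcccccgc
Atp5g3, chr2:73911327-73911576, minus strand: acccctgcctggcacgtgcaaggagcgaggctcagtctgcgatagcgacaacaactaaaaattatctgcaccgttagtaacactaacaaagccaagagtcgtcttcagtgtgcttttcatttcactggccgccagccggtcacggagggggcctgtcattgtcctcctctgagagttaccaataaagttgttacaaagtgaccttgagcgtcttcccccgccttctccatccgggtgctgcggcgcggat
Cox6a1, chr5:115348959-115349208, minus strand: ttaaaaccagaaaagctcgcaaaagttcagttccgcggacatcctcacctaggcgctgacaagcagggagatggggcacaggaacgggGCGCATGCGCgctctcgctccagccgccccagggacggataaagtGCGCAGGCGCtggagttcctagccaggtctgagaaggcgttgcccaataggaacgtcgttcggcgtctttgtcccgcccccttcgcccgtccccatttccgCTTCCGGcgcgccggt
Sdha, chr13:74350241-74350490, minus strand: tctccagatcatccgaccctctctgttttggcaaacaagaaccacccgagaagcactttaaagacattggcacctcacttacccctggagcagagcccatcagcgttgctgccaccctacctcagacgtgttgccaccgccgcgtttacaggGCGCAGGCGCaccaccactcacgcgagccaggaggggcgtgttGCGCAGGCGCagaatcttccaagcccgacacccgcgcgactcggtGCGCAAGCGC
The Atp5g1 and Atp5g3 runs held no match to either motif, that of Atp5g2 held 1 NRF1 match, that of Cox6a1 held 2 NRF1 matches and 1 ETS match, and that of Sdha held 3 NRF1 matches. A RefSeq window was found for 65 of the 82 members. Over the 250 bases before the start, 12 of these 65 (18.5%) held the NRF1 motif, against 3.86% of the 27025 genes in the same table, and 11 of 65 (16.9%) held the ETS motif, against 7.05%.

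Total counts ranged from 13591695 to 17598504 in the pituitary libraries and from 14799718 to 18689881 in the iWAT libraries. The labelled tissues carried their markers: 10 hormone genes summed to at least 100609 CPM (counts scaled to a common library total) in each pituitary library and 10 adipocyte genes to at least 9385 CPM in each iWAT library. Klf14 itself was 2.01-fold higher in the pituitary libraries labelled KO (29.3 to 36.9 CPM) than in those labelled WT (13.4 to 18.2 CPM; edgeR quasi-likelihood test, Benjamini-Hochberg adjusted p = 7.65e-05), which goes against the label, so the groups are called by their labels throughout. Among the iWAT libraries labelled KO, library 50 stood apart. It was also the only one of 19 weeks, the other 4 being of 21 weeks, so its age and its other traits cannot be told apart. Its 12 lymph node genes summed to 33.3 CPM, against 524 to 1999 CPM in the other 9, and it had the highest adipocyte sum (31632 CPM) and the highest sum of 7 blood genes (10441 CPM). Library 31 had the highest sum of 12 skeletal muscle genes (604 CPM, against 21.4 to 204 CPM in the other 9), and library 32 held 123 CPM of pituitary hormone genes, against at most 2.09 CPM in the other 9. In the pituitary, KO library 50 had the highest macrophage sum (256 CPM, against 84.6 to 119 CPM) and blood sum (3460 CPM), and KO library 66 the highest posterior lobe sum (438 CPM). The part of these differences in the results on the members was not tested.

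The members together took 1.74% ± 0.0888 (SD, n = 5) of the summed TPM (counts divided by gene length and scaled to a common total) in the iWAT libraries labelled WT and 0.972% ± 0.0379 (n = 5) in the pituitary libraries labelled WT. Such values depend on the other genes in the total. The hormone genes summed to 100609 to 145329 CPM in these pituitary libraries and to 0.735 to 2.01 CPM in these iWAT libraries. On this length-scaled level the ATP synthase catalytic subunit β, Atp5b, led complex V in iWAT at 1227 ± 102 TPM, and the α subunit, Atp5a1, was second in that complex at 555 TPM. In the pituitary the order of this pair was turned, with Atp5a1 at 422 TPM and Atp5b at 369 TPM. Complex IV was led by Cox6a1 (630 TPM) and Cox8a (589 TPM) in iWAT, and in the pituitary by Cox7a2l (309 TPM), placed in this complex by its name, followed by Cox8a (288 TPM). Ndufa4, named for complex I but now known as a subunit associated with complex IV, was the highest of the accessory Nduf genes in both tissues (460 and 218 TPM in iWAT and pituitary). Ndufa4 and its paralogue Ndufa4l2 are kept by name among the complex I accessory genes in all counts and sums here. Sdha, the flavoprotein of succinate dehydrogenase, led complex II (340 and 181 TPM), and the hinge protein Uqcrh led complex III (438 and 296 TPM). Cycs, the gene of cytochrome c, stood at 45.3 TPM in iWAT and 12.5 TPM in the pituitary. Ndufa4l2, which is hypoxia-induced, was the lowest of the accessory Nduf genes in both tissues (10.1 and 6.62 TPM), and Atp5s was the lowest in complex V (10.7 and 16.5 TPM).

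Most members were higher in fat than in the pituitary. In the libraries labelled WT, 66 of the 79 tested were higher in iWAT and 4 were lower at an adjusted p under 0.05 (edgeR quasi-likelihood test, Benjamini-Hochberg over 17023 genes). Over all genes tested, 38.9% were higher and 40.2% lower. The members' median log2 difference was 0.60, or 1.52-fold, against -0.01 over all genes. For 62 members every iWAT library lay above every pituitary library, and for 4 every one lay below, where 33.4% and 36% of all genes did so (69.4% in either direction). In the libraries labelled KO, 56 of 79 were higher and 3 were lower, against 37.8% and 37.3% of 16905 genes (75.1% in either direction), with a median of 0.65 against 0.02 over all genes. The groups did not overlap for 46 higher and 3 lower members, against 29.2% and 34.1% of all genes (63.4% in either direction). Without library 50, which leaves 4 KO libraries in each tissue, that median was 0.42, with 53 higher and 4 lower. In these bulk samples, fewer cells of a type and less RNA per cell cannot be told apart.

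Of the members called, 56 members were higher in iWAT under both, 3 (Atp5g1, Atp5s and Cox7a2l) were lower under both, and none was called in opposite directions. In the WT libraries alone, 10 more were called higher, 9 of them accessory Nduf genes (Ndufa4l2, Ndufs4, Ndufa6, Ndufb4, Ndufb5, Ndufc1, Ndufs5, Ndufa5 and Ndufb2) and the other Atp5l, and Ndufa11 was called lower. These calls share no libraries between the labels, and the difference between the labels is tested below.

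**Figure D1:**
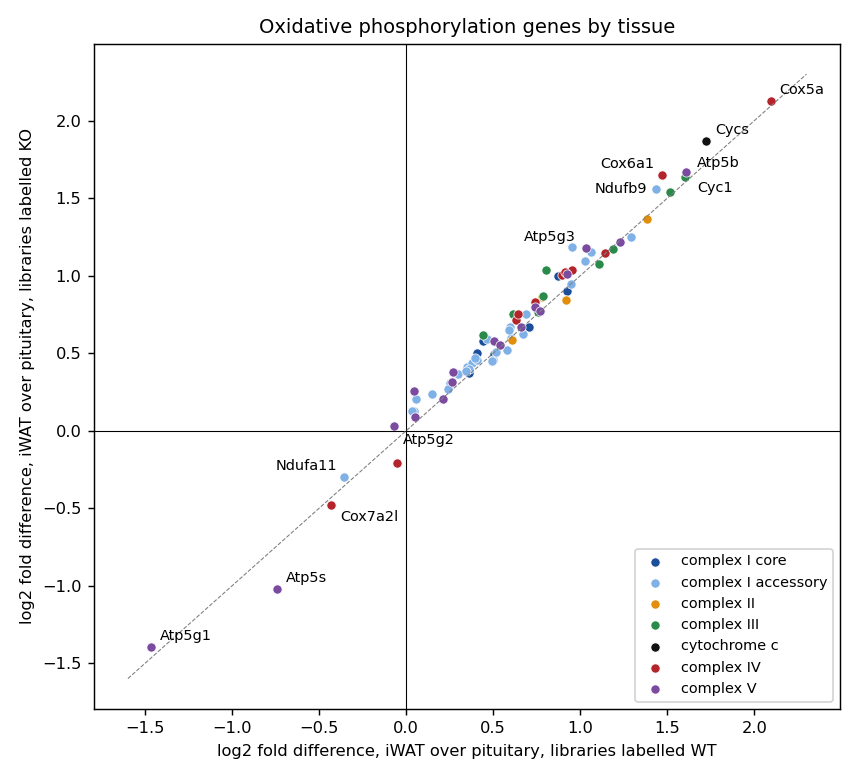
Log2 fold difference between iWAT and pituitary for the 79 members tested, in libraries labelled WT (horizontal axis) and labelled KO (vertical axis), coloured by complex, with the dashed line marking equal values. Most points lie in the upper right near that line, up to Cox5a at 2.09 and 2.12, and Atp5g1 lies apart at -1.47 and -1.40.

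In complex I, which takes electrons from NADH, all 7 core genes tested were higher in iWAT in both labels, with a WT median of 0.51. Of all genes, 38.9% (WT) and 37.8% (KO) were higher. In the KO libraries the call of Ndufs8 (0.37, adjusted p = 0.0439, edgeR) was lost whichever of the 5 was left out (adjusted p 0.054 to 0.13), and that of Ndufs3 (0.50) without library 32 (0.49, adjusted p = 0.0753, edgeR). Ndufv1, which binds NADH and flavin, gave 107, 101, 98.6, 118 and 109 CPM in the iWAT libraries labelled WT and 57.1, 59.1, 60.4, 52.3 and 54.3 CPM in the pituitary libraries labelled WT. No iWAT value came near the pituitary range, and the log2 difference was 0.92 ± 0.07 (SE; adjusted p = 1.78e-07, edgeR). Of the 30 accessory genes, 25 were higher and 1 was lower in the WT libraries, and 16 were higher and none lower in the KO libraries. An unadjusted p under 0.05 was found for 26 and 17 of them, against 13656 of 17023 and 12949 of 16905 genes. Ndufb9 (1.43) and Ndufb8 (1.29), both of the membrane arm, had the largest WT differences. Ndufa11, a membrane-arm subunit at the contact with complex III, ran the other way, at 16.9 to 19.9 CPM in iWAT and 23.0 to 24.4 CPM in the pituitary (log2 -0.36 ± 0.07; adjusted p = 5.54e-04, edgeR). In the KO libraries the Ndufa11 difference was -0.30 and did not pass the test with all 5 libraries (adjusted p = 0.0907), but did without library 50 (-0.43, adjusted p = 0.0151, edgeR).

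All 4 genes of complex II and all 9 of complex III were higher in iWAT in both labels, as were 38.9% (WT) and 37.8% (KO) of all genes. Sdha gave 406, 379, 374, 450 and 428 CPM in iWAT and 234, 233, 245, 237 and 242 CPM in the pituitary of the WT libraries. The groups did not overlap, at a log2 difference of 0.78 ± 0.06 (adjusted p = 4.81e-07, edgeR). Sdhb, the iron-sulfur subunit, had the largest difference of the complex at 1.38 ± 0.09. In complex III, cytochrome c1 (Cyc1, 1.60 ± 0.16) and the small subunit Uqcrq (1.52 ± 0.12) led, and the hinge protein Uqcrh was lowest at 0.44. The Rieske iron-sulfur protein, Uqcrfs1, differed by 0.80 and the core protein Uqcrc1 by 1.11.

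Cycs, the soluble carrier between complexes III and IV, gave 55.3, 53.3, 63.3, 59.1 and 59.0 CPM in the iWAT libraries labelled WT and 18.5, 17.7, 17.9, 17.4 and 16.7 CPM in the pituitary. Every iWAT library lay far above the pituitary range, and the fold was 3.30 (log2 1.72 ± 0.07; adjusted p = 1.25e-09, edgeR). In the KO libraries the log2 difference was 1.87, and 1.53 without library 50.

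Complex IV, which passes the electrons to oxygen, held the member with the largest difference. Cox5a gave 48.7, 51.0, 62.9, 58.5 and 52.1 CPM in iWAT and 13.9, 12.1, 15.5, 10.6 and 12.1 CPM in the pituitary of the WT libraries. The lowest iWAT library stood far above the highest pituitary library, at a fold of 4.27 (log2 2.09 ± 0.11; adjusted p = 1.58e-08, edgeR). Of the 11 genes tested, 9 were higher, Cox7a2l was lower and Cox6b2, known as a testis form, did not pass (-0.05, adjusted p = 0.858, edgeR). Over all genes, 38.9% were higher and 40.2% lower in these libraries. Cox6a1, the common form of subunit 6a, differed by 1.47 and Cox8a by 0.91. Cox7a2l was at 98.6, 119, 133, 122 and 130 CPM in iWAT and at 150, 165, 170, 169 and 163 CPM in the pituitary of the WT libraries. The groups did not overlap in either label, with log2 differences of -0.43 ± 0.08 (WT; adjusted p = 4.04e-04, edgeR) and -0.48 ± 0.07 (KO). Its relative Cox7a2, a subunit of complex IV proper, was higher in iWAT by 0.63.

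**Figure D2:**
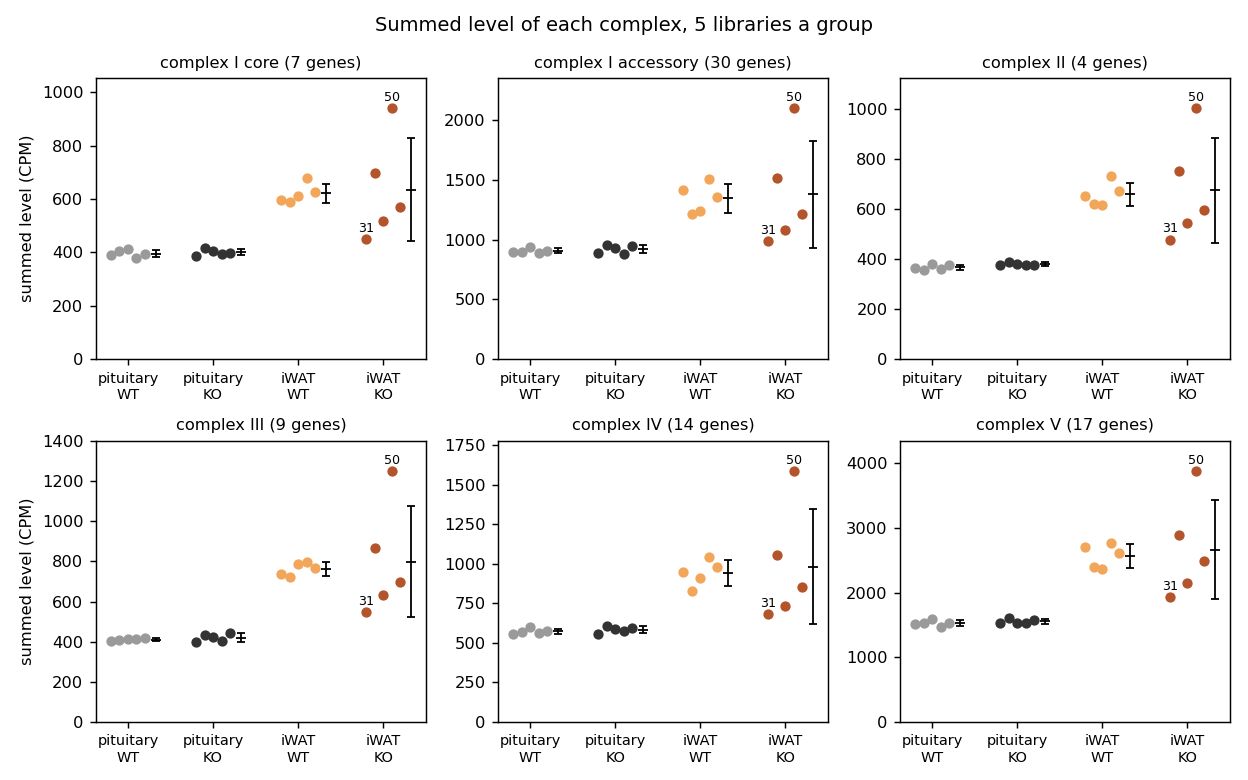
Summed level in CPM of the genes of each complex in each of the 20 libraries (points), with the mean and SD of the 5 libraries of a group beside them; the numbers 31 and 50 mark those iWAT libraries labelled KO. For each of the 6 sets every iWAT library stood above every pituitary library, and library 50 was the highest of all, as at 3877 CPM for complex V.

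Of the 17 genes of complex V, 11 were higher and 2 were lower in iWAT in the WT libraries, and 4 did not pass. Over all genes tested, 38.9% were higher, 40.2% lower and 79.1% called either way. Atp5b gave 1052, 880, 832, 1078 and 1001 CPM in iWAT and 333, 322, 325, 298 and 317 CPM in the pituitary of the WT libraries. This made it 3.05-fold higher in iWAT (log2 1.61 ± 0.09; adjusted p = 1.49e-08, edgeR). Its partner in the same catalytic head, Atp5a1, differed by 0.27 ± 0.06 (adjusted p = 8.28e-04, edgeR), and by 0.38 in the KO libraries, a call lost without library 50 (0.20, adjusted p = 0.125, edgeR). Atp5o, of the stalk that holds the head, differed by 1.23.

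The 3 genes of subunit c differed from each other. Atp5g1 (chromosome 11, 96072793 to 96075694, minus strand, in the mm10 coordinates of the count tables) gave 21.4, 21.9, 20.2, 18.8 and 19.9 CPM in the iWAT libraries labelled WT and 58.6, 55.2, 61.7, 55.1 and 53.2 CPM in the pituitary libraries labelled WT. It was 2.77-fold lower in iWAT (log2 -1.47 ± 0.07; adjusted p = 6.47e-09, edgeR) and 2.63-fold lower in the KO libraries, with no overlap in either label. Atp5g2 lay at 39.5 to 46.3 CPM in iWAT and 39.9 to 47.4 CPM in the pituitary; the ranges overlapped and the log2 difference was -0.07 ± 0.07 (adjusted p = 0.379, edgeR). Atp5g3 ran with most members, at 82.7 to 117 CPM in iWAT and 48.6 to 56.0 CPM in the pituitary (log2 1.03 ± 0.10; adjusted p = 1.85e-06, edgeR). Their summed level was 454 ± 22.3 TPM in the pituitary and 578 ± 33.1 TPM in iWAT in the WT libraries (SD, n = 5 each). These sums, being TPM, also depend on the other genes in each tissue's total.

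On the length-scaled level, Atp5g1 made up 31.3% ± 1.13 of the subunit c transcripts in the pituitary libraries labelled WT and 9.77% ± 1.01 in the iWAT libraries labelled WT (n = 5 each). Atp5g3 made up 36.4% and 63.6%, and Atp5g2 32.3% and 26.6%. In the libraries labelled KO the Atp5g1 share was 31.1% and 9.50%. For both labels a two-sided exact permutation test over the libraries gave p = 0.00794, the smallest that 5 against 5 allow, and 0.0159 after Benjamini-Hochberg adjustment over 4 tests. The shares use the same counts, in which Atp5g1 lay wholly lower and Atp5g3 wholly higher in iWAT. Their separation followed from those counts, so this p adds no further support. The share did not differ by label beyond the spread in the pituitary (exact p = 0.81, difference -0.19 percentage points) or in iWAT (exact p = 0.833, difference -0.27 percentage points). In a gene annotation of the same genome build (GENCODE vM21), 6.2% of the 100-base windows of Atp5g1 transcripts also occurred in other genes, 4.28% of those of Atp5g2 and none of those of Atp5g3.

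Atp5s, the other member of complex V that was lower in iWAT, and its relative Atp5sl match the rule by name but are not subunits of the enzyme; the product of Atp5sl is known as an assembly factor of complex I. It gave 7.37, 7.89, 5.65, 6.62 and 5.94 CPM in iWAT and 10.9, 11.1, 12.05, 9.81 and 12.5 CPM in the pituitary of the WT libraries, with no overlap (log2 -0.74 ± 0.12; adjusted p = 1.72e-04, edgeR). In the KO libraries it was lower by 1.02 on the log2 scale. Without Atp5s and Atp5sl, 66 of 77 members were higher and 3 lower in the WT libraries.

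**Figure D3:**
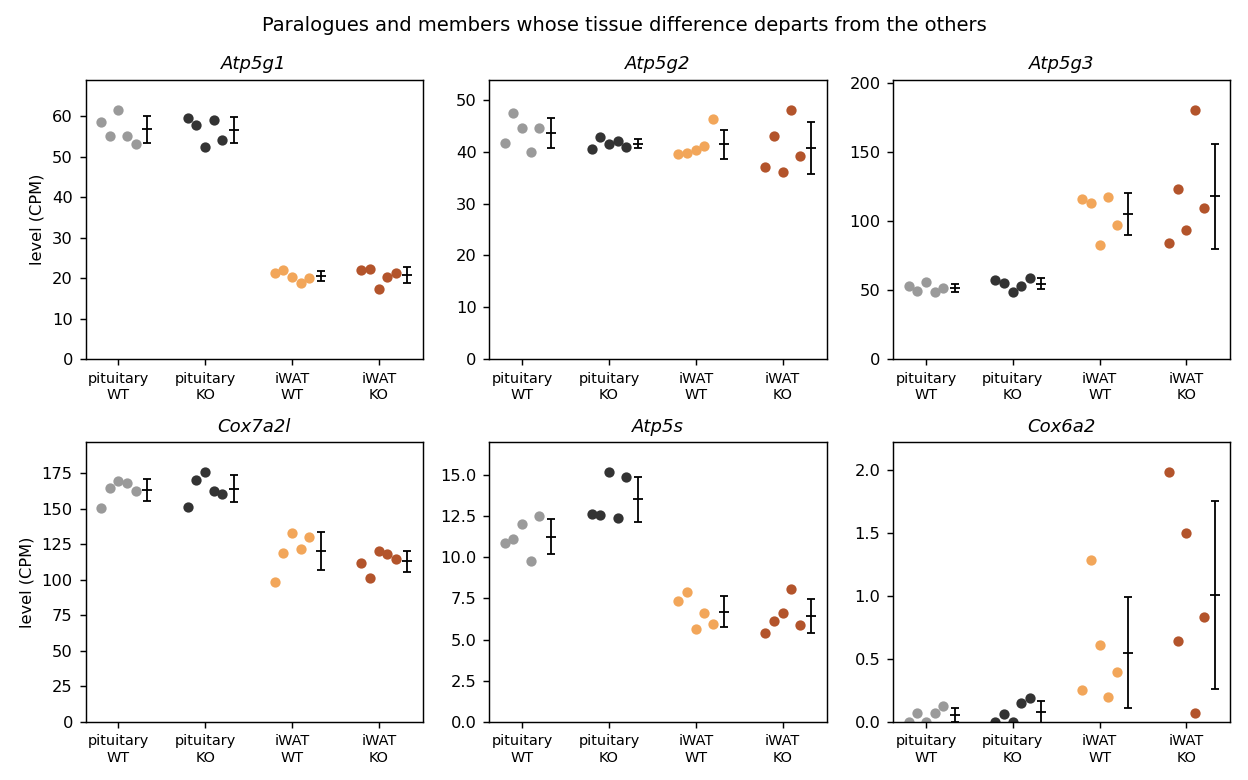
Level in CPM of Atp5g1, Atp5g2, Atp5g3, Cox7a2l, Atp5s and Cox6a2 in each of the 20 libraries (points), with the mean and SD of each group of 5 beside them. Atp5g1, Cox7a2l and Atp5s were lower in every iWAT library than in every pituitary library, Atp5g3 was higher, Atp5g2 overlapped, and Cox6a2 was at most 1.98 CPM.

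Genes of the same machinery that the naming rule leaves out followed most members with 1 exception. Cox4i1, the common form of complex IV subunit 4, was higher in iWAT by 1.30 in the WT and 1.45 in the KO libraries, and Ndufab1, the acyl carrier protein in complex I, by 0.77 and 0.97. Cox8b, the heart, muscle and brown fat form of subunit 8, lay at 14.0 to 46.4 CPM in iWAT and at 0.343 to 0.560 CPM in the pituitary of the WT libraries, a log2 difference of 5.96. Cox7a1, the heart and muscle form of subunit 7a, differed by 1.92 in the WT libraries, where library 48 held 13.3 CPM and the other 4 iWAT libraries 1.86 to 4.03 CPM; without it the difference was 0.99 (adjusted p = 0.0199, edgeR), and in the mice of 21 weeks it was 0.81 and not called (adjusted p = 0.176, edgeR). That library also had the highest level of Ucp1, the uncoupling protein of thermogenic fat (113 CPM, against 0.898 to 7.29 CPM in the other WT libraries); its members' sum of 6587 CPM was the second lowest of the 5. Atpif1, the inhibitor that blocks reverse rotation of the ATP synthase, ran the other way. It gave 16.4 to 22.6 CPM in iWAT and 55.2 to 61.2 CPM in the pituitary of the WT libraries, a log2 difference of -1.59 ± 0.08 (adjusted p = 1.37e-08, edgeR), and -1.66 in the KO libraries.

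Other genes of the pathway were counted from lists. The list for the citric acid cycle, which supplies NADH and succinate, also holds Pdha1, Pdhb and Dlat of the pyruvate dehydrogenase complex. All 16 genes of this list were higher in iWAT in both labels, with a WT median of 0.99. Cs, citrate synthase, differed by 1.88 ± 0.05. Of 14 regulators of mitochondrial biogenesis tested, 10 were higher and 2 lower in both labels. Over all genes tested, 79.1% were called in either direction in the WT libraries and 75.1% in the KO libraries. The coactivator genes Ppargc1b (2.20) and Ppargc1a (2.001), the receptor Esrra (1.11) and the corepressor Nrip1 (1.77) were higher in the WT libraries, and the receptor Esrrg was lower (-2.84). Tfam, which packages mitochondrial DNA and acts in its transcription, did not pass (0.14, adjusted p = 0.111, edgeR). Ppargc1a, Tfam and, in the WT libraries, Esrrg and Cox10 were chosen after their values were seen. The 42 assembly factors showed no common direction: 14 were higher, 11 lower and 17 did not pass in the WT libraries, with a median of 0.08. Over all genes, 38.9% were higher and 40.2% lower there. Coa5 (0.85) and Cox10 (0.90), both needed for complex IV, were higher, whereas the complex III factor Uqcc2 (-0.86), the complex I methyltransferase Ndufaf7 (-0.67) and Coa4 (-1.16) were lower.

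Some member counts are uncertain because reads can belong to other genes. Of the exon bases of Ndufs5, 95.1% are shared with BC002163, and the authors' counting gave a read in such bases to both. Of the 100-base windows of Atp5l transcripts, 61.3% also occur in other annotated genes, such as Atp5l-ps1. The same holds for 33.4% of those of Ndufb4, 29.5% of those of Atp5h, 24.7% of those of Cycs and 17% of those of Ndufb9, and for under 20% of those of all members not named here.

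The tissue difference was set beside the motif matches shown above. The WT median was 0.59 for the 12 members with an NRF1 match and 0.61 for the 52 without. It was 0.59 for the 11 members with an ETS match and 0.63 for the 53 without. The difference was above 0 for 10 of the 12 with an NRF1 match, all but Atp5g2 and Ndufa11, and for 49 of the 52 without. It was above 0 for 11 of 11 with an ETS match and 48 of 53 without. Of all genes tested, 49.6% were above 0. These medians and counts are descriptions, without a test.

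In the pituitary, no member passed the test between the labels. Of 79 tested, 0 were called by edgeR, where 0.549% of 16389 genes were, and DESeq2 and limma-voom also called 0. In edgeR 4 had an unadjusted p under 0.05, as did 1792 of all 16389 genes, which is a larger share. The members' log2 differences ran from -0.11 to 0.34, 68 of the 79 were under 0.1 in size, and the median SE was 0.06. The median was 0.04 against 0.00 over all genes, with 57 of 79 above 0 (72.2%, against 51.2% of all genes). Ndufb8, an accessory subunit of the complex I membrane arm, gave 33.1, 32.9, 33.2, 32.1 and 31.9 CPM in the libraries labelled KO and 28.1, 30.7, 29.9, 27.2 and 29.1 CPM in those labelled WT. All KO values lay above all WT values, by 0.16 ± 0.05 on the log2 scale, but this did not pass (adjusted p = 0.22, edgeR). Uqcrc1 was the other of the 2 members whose groups did not overlap (0.13, adjusted p = 0.286, edgeR), where 1.73% of all genes lay wholly above, 1.09% wholly below and 2.82% either way. Atp5s (0.26) and Ndufv3 (-0.11) were the other members under an unadjusted 0.05. Cox6b2 had the largest difference (0.34) with the largest SE (0.23).

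Among the pathway lists in the pituitary, edgeR called 0 of 42 assembly factors (4 under an unadjusted p of 0.05), 0 of 14 biogenesis regulators (2) and 0 of 16 citric acid cycle genes (0). Of all 16389 genes, 1792 were under that unadjusted p. DESeq2 called 2 assembly factors higher in the KO libraries and limma-voom 0. The share of all genes that DESeq2 called is not given here, so this count says nothing of the list as a whole. They were Coa5 (0.18, adjusted p = 0.016, DESeq2) and Bcs1l, which inserts the Rieske protein into complex III (0.41, adjusted p = 0.0255, DESeq2). The edgeR values were 0.18 (adjusted p = 0.092) and 0.42 (adjusted p = 0.108), both without overlap of the groups. Of all genes, 1.73% lay wholly above and 2.82% either way.

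In iWAT, no member passed either, and none had an unadjusted p under 0.05, where 89 of 16105 genes had. Of 80 tested, 0 were called by edgeR, where 0% of 16105 genes were, and DESeq2 and limma-voom called 0. No member's groups were without overlap, against 0.0497% of all genes higher, 0.0248% lower and 0.0745% either way. The members' median difference between the labels was 0.04 with 61 of 80 above 0, and the median SE was 0.19. Without library 50 the median turned to -0.16, with 77 of 80 below 0 (52.6% of all genes, median -0.01). Again 0 were under an unadjusted p of 0.05, where 171 of 16260 genes were, and 0 were called. Under limma-voom with quality weights, which gives less weight to libraries that stand apart, the median was -0.09. The sign of the median thus rested on library 50, the only iWAT library labelled KO of 19 weeks.

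Summed over all members, the iWAT libraries labelled KO gave 5099, 7853, 5701, 10863 and 6466 CPM in the order 31, 32, 35, 50 and 66. The libraries labelled WT gave 7108, 6425, 6587, 7573 and 7088 CPM in the order 33, 34, 48, 49 and 56. The KO values lay on both sides of the WT range, 2 above and 2 below it. The means were 7197 ± 2294 CPM and 6956 ± 458 CPM (SD, n = 5 each). In the pituitary the corresponding means were 4274 ± 124 CPM and 4195 ± 101 CPM.

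**Figure D4:**
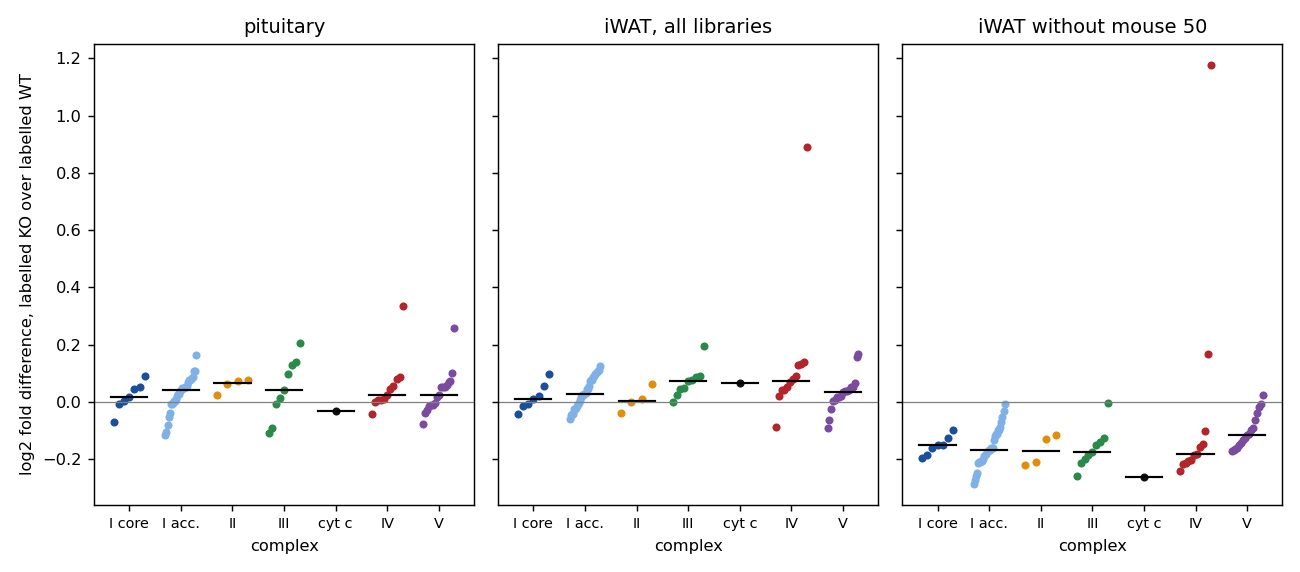
Log2 fold difference of each member between libraries labelled KO and labelled WT (points), by complex, with a line at each median, in the pituitary, in iWAT with all libraries and in iWAT without library 50. The medians over all members are 0.04, 0.04 and -0.16, and the point that stands highest in iWAT is Cox6a2 at 0.89 and 1.18.

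Cox6a2 had the largest iWAT difference between the labels (0.89 ± 0.69, adjusted p = 1, edgeR) on very few counts. It gave 1.98, 0.638, 1.5, 0.0715 and 0.834 CPM in KO libraries 31, 32, 35, 50 and 66 and 0.250, 1.28, 0.608, 0.201 and 0.396 CPM in WT libraries 33, 34, 48, 49 and 56. The summed skeletal muscle genes in the same libraries were 604, 118, 191, 21.4 and 204 CPM and 161, 106, 155, 24.1 and 28.9 CPM. Library 31 was highest and library 50 lowest in both. The part of muscle in this gene's level was not tested. Next by p were Cox7a2l (-0.09), Atp5j (0.16) and Cyc1 (0.19), all with an adjusted p of 1 (edgeR); the Atp5j and Cyc1 differences were -0.0064 and -0.0040 without library 50.

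The members were spread more widely over the iWAT libraries labelled KO than over those labelled WT. Library 50, the only one labelled KO of 19 weeks, carried much of this, and the part of age was not tested. The median SD of the members' log2 levels was 0.42 in these 5 libraries and 0.14 in the WT libraries, whereas over all genes it was 0.26 and 0.22. Of 79 members, 76 had the larger SD in the KO libraries, as did 63.9% of all genes. Without library 50, a setting chosen after the data were seen, the members' median SD in the 4 remaining KO libraries was 0.26 and that of all genes 0.20; 75 of 79 members still had the larger SD in the KO libraries, against 39.7% of all genes. Leaving out library 31, 32, 35 or 66 gave 0.39 to 0.47. In the pituitary the medians were 0.08 in both labels. Library 50 was the highest of the 10 iWAT libraries for 74 of 79 members, where it was the highest for 26.4% of all genes, and library 31 was the lowest for 62. The median ratio of library 50 to library 31 was 2.08 over the members, and the median log2 ratio over all genes was 0.00.

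The KO libraries stood in the same order, 31, 35, 66, 32 and 50 from low to high, in the sums of complexes I, II, III, IV and V; for Cycs, 35 and 66 changed places. The complex I core sums ran from 449 to 939 CPM in the KO libraries, those of complex III from 546 to 1250 CPM and those of complex IV from 680 to 1586 CPM. The 5 members for which library 50 was not the highest were Atp5g1, Cox7a2l, Cox6b2, Atp5sl and Ndufb7. Atp5g1 was at 22.1 and 20.2 CPM in libraries 31 and 50, Cox7a2l at 112 and 118 CPM and, as a member that did follow to a small extent, Atp5g2 at 37.1 and 48.1 CPM. By contrast Cycs was at 32.6 and 110.4 CPM and Cox6a1 at 97.8 and 270.3 CPM. Across the 79 members, the log2 ratio of library 50 to library 31 went with the tissue difference in the WT libraries (Pearson r = 0.586, Spearman rho = 0.515). This is a description over genes that share libraries, which are not independent replicates.

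Genes of fat cells and of other pathways moved along in the same libraries. The adipocyte sum was 9385, 19089, 13653, 31632 and 17389 CPM in KO libraries 31, 32, 35, 50 and 66, so that libraries 31 and 50 were lowest and highest of that group here too. In WT library 48 it was 9478 CPM, where the members summed to 6587 CPM. The list of 10 thermogenic genes includes Ppargc1a and also Cox7a1 and Cox8b, complex IV subunits outside the naming rule, so it overlaps the same machinery. The 10 thermogenic genes summed to 80.0, 214, 89.6, 488 and 106 CPM in KO libraries 31, 32, 35, 50 and 66, in the same order as the members' sums. Libraries 31 and 50 were the lowest and highest of all 10 iWAT libraries. In the WT libraries these genes summed to 429 CPM in library 48 and to 128 to 216 CPM in the other 4. The citric acid cycle genes summed to 1764 CPM in library 31 and 4205 CPM in library 50, against 2422 to 2850 CPM in the WT libraries. Atpif1, which was lower in iWAT than in the pituitary, was at 22.1 CPM in library 31 and at 12.6 CPM in library 50, the lowest of the 10. The part of the cell mixture or of thermogenic fat cells in the members' spread was not tested.

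**Figure D5:**
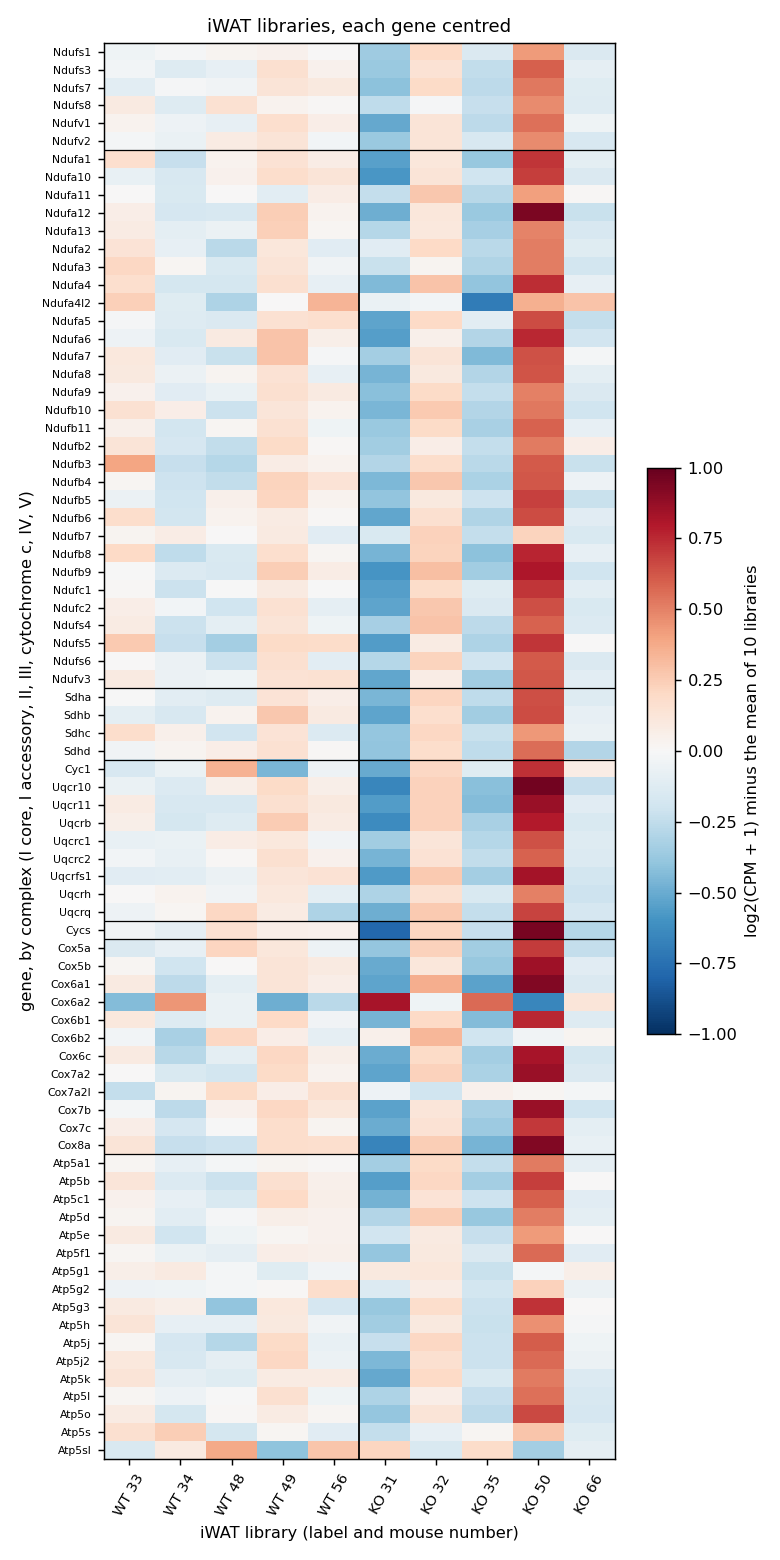
Level of 79 of the 80 members tested in iWAT (rows, by complex) in each of the 10 iWAT libraries (columns, 5 labelled WT and 5 labelled KO), as log2(CPM + 1) minus the gene's mean over the 10 libraries; red is above and blue below that mean. Library 50 is red in nearly every row and library 31 blue, with Atp5g1, Cox7a2l, Cox6a2, Cox6b2 and Atp5sl as the clearest exceptions.

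The difference of the label effect between the tissues was tested in 1 model over all 20 libraries. None of the 80 members tested was called by edgeR, DESeq2 or limma-voom, where 0% of 17731 genes were called by edgeR. The edgeR model takes 1 spread for both tissues, though fitted alone its coefficient of variation was 0.10 in the pituitary and 0.31 in iWAT. A difference that stands out in the pituitary alone can thus go uncalled in it. An unadjusted p under 0.05 was found for 0 members and for 427 of the 17731 genes. The median of the iWAT effect minus the pituitary effect was 0.04, and -0.22 without library 50. Atp5s had the smallest p, at -0.29 ± 0.18 (unadjusted p = 0.119, adjusted p = 1, edgeR), from an effect of 0.26 in the pituitary and -0.06 in iWAT. The median SE of this difference was 0.22.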

How the data were processed

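Read counts per gene were analysed in 20 libraries, 5 for each tissue and label. The authors deposited whole-number counts that were not normalized, made with featureCounts over the exons of a UCSC mm10 annotation from primary alignments, with a read counted for each gene it overlaps and no strand option, per the file headers; STAR 2.4.0 and featureCounts 1.4.4 are named in the submitters' processing notes. Reads from overlapping genes cannot be told apart. Printed CPM are counts scaled by library size and TMM factors over all 20 libraries; TPM use the gene lengths in the files.

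Comparisons were fitted over all genes with edgeR 4.0.16 (filterByExpr, TMM, robust quasi-likelihood test, R 4.3.3) and Benjamini-Hochberg adjustment at 0.05. Each tissue comparison used the libraries of 1 label, each label comparison the libraries of 1 tissue, and the interaction all 20. A standard error is the absolute log2 difference divided by the square root of F. Shares were compared with exact permutation tests. DESeq2 1.42.0, limma-voom (limma 3.58.1), other scalings and filters, the 21-week mice, age as a covariate, the mouse number as a block and leaving out each mouse number were tried. The fits were tested on simulated data. No pair of replicates agreed within sampling noise (smallest reduced chi-square 4.70).

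The members and lists were chosen with earlier results of these data known. Genes were named by rule: per complex the 2 highest and the lowest in TPM, up to 2 called in each direction with the largest difference, or the 8 of smallest p where fewer than 5 were called, the paralogue groups, 6 genes outside the naming rule, up to 4 of each pathway list, and Klf14; the text gives those it needs, and a few members named for their role besides. For 1 member, which enters the counts and sums, single values are not reported here.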

Additional observations from a re-analysis of the deposited data

Results flagged for a closer look

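Of 76 groups of 5 libraries tested for a value far from the others, 1 had one. Atp5g2 was at 46.3 CPM in iWAT library 56 labelled WT, against 39.5 to 41.2 CPM in the other 4 libraries. Its gap to the nearest of them was 0.749 of the group's range, above Dixon's limit of 0.71 for 5 values. Chance gives about 1 such value in 20 groups.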

How the results depend on the processing

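The counts of members called stayed within 1.5 times in every setting run: 56 to 71 in the WT tissue comparison, 46 (without replicate 32) to 64 in the KO one, and 0 in the 3 label comparisons. The WT tissue median ran from 0.58 to 0.68 when 1 mouse number was left out. The median log2 ratio of the tissues over members was 0.73 in TPM and 0.60 in CPM per kb. The interaction median was -0.18 in mice of 21 weeks only, and -0.22 to 0.12 when 1 number was left out. The iWAT label median was -0.12 in mice of 21 weeks and 0.16 with age as a covariate. Values that changed sign were not called in any setting: the KO tissue difference of Atp5g2 (-0.0031 with no filter, -0.038 in limma-voom, -0.065 in 21-week mice, -0.065 to 0.072 with 1 number left out), that of Cox6b2 in WT libraries (-0.26 to 0.13 with 1 left out), and, for the label in iWAT, Cox7a2l (0.038 in 21-week mice), Atp5j (-0.0064 to 0.23) and Cyc1 (-0.0040 to 0.32, both with 1 left out). The cause was not tested. In 21-week mice, which leave 2 WT libraries a tissue, 14 of the 70 WT tissue calls were lost, Atp5s (adjusted p = 0.0534, edgeR) and Ndufa11 (0.0931) among them. For the KO tissue comparison, keeping the 21-week mice and leaving out number 50 are the same fit. The Klf14 difference in the pituitary was not called in 21-week mice (log2 1.04, adjusted p = 0.0627) or in 1 fit over all 20 libraries (log2 1.004, adjusted p = 1), with a fold close to the main one (log2 1.004). Calls of Ndufa4l2, Cox4i2, Cox7a1 and, in KO libraries, Ndufs8 and Atp5a1 were lost in several settings. With the replicate block (mouse number), 68 WT and 55 KO tissue calls remained, with medians of 0.60 and 0.59. The interaction then had 0 calls and a median of -0.02. Same-numbered libraries had the same label and age in both tissues. They correlated at -0.0838 to 0.105, and 5 of 10 were closest to their own number. These values do not decide whether a number is 1 animal. The main tests treated the numbers as not pairing the libraries, and a pairing is not excluded.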
